A study of Mus musculus with 4 samples.

Results

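Sbsn, Dmkn, Krtdap, Lgals7, Lgals3, Ly6d, Ly6g6c, Lypd3 and Lypd5 encode secreted and surface proteins of the suprabasal epidermis. The 9 genes were listed by name, with earlier results of these data known, from the 56493 genes of the deposited count table, and each name matched 1 row. They were followed in dorsal epidermis of mice that lack the calcium sensors STIM1 and STIM2 in keratin 14-expressing epithelium. The cKO group carried the Cre recombinase under the keratin 14 promoter together with floxed Stim1 and Stim2 alleles, and the control group is labelled as homozygous for the floxed alleles. Each group had 2 libraries. Strain, age, sex and treatment are not given in the labels, and nothing says whether the 2 libraries of a group came from separate mice, so p-values measure the spread between these samples, which may be technical. The comparison asked how loss of both sensors changed these RNAs.

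The proteins fall into 3 kinds. Suprabasin (Sbsn), dermokine (Dmkn) and keratinocyte differentiation-associated protein (Krtdap) are secreted by differentiating keratinocytes, and their genes lie side by side in a cluster found in mouse and man. Galectin-7 (Lgals7) and galectin-3 (Lgals3) are lectins that bind beta-galactosides; galectin-7 is typical of stratified epithelia, while galectin-3 is also made by macrophages and other cells. Ly6d, Ly6g6c, Lypd3 (C4.4A) and Lypd5 belong to the Ly6/uPAR family, small proteins with a disulphide-bonded fold that are mostly held at the cell surface by a lipid anchor. Rising calcium is a classical trigger of keratinocyte differentiation, and store-operated calcium entry, which STIM1 and STIM2 start, is one of its routes.

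The promoter sequences of the Sbsn, Dmkn and Krtdap cluster are shown because the 3 genes lie side by side and had their lowest value in the same library, a trait they shared with 4 other members. Each runs from 250 bases before to 30 bases after a RefSeq transcript start on build GRCm38.p6, plus strand, and capitals mark TGANTCA, the letters of the AP-1 motif. Of the 3 Dmkn starts in RefSeq the distal one and the internal one are shown, and the remaining start lies next to the distal one.
Sbsn, chr7:30751221-30751500: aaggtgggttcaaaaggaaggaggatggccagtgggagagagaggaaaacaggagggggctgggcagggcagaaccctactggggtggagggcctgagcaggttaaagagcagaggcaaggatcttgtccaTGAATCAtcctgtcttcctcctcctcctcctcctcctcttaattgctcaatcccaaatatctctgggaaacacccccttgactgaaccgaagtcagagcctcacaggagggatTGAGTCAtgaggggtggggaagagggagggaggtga
Dmkn distal, chr7:30763506-30763785: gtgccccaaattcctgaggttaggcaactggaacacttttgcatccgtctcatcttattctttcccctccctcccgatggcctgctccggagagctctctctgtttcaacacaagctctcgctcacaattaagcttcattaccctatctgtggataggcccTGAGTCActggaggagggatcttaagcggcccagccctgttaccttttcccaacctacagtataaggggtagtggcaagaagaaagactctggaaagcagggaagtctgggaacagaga
Dmkn internal, chr7:30776155-30776434: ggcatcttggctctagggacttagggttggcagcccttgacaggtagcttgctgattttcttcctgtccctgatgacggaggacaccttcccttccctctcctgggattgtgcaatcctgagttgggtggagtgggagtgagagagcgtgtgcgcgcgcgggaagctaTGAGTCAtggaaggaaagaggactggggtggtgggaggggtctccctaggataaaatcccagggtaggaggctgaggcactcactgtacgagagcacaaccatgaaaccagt
Krtdap, chr7:30787655-30787934: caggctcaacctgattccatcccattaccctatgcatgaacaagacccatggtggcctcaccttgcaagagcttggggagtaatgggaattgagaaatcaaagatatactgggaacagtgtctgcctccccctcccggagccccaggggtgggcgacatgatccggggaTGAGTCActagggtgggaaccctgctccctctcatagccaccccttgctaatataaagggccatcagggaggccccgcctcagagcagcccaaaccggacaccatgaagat
The AP-1 letters occurred in the windows of these 3 genes and in none of the windows of the other 5 members for which a sequence was matched. Counted by window, 5 of the 10 member windows held them, and 3 of these 10 belong to Dmkn. Among 32851 RefSeq promoter windows of the same length, 7.46% held them. In Sbsn the matches began 119 and 6 bases before the start, in Dmkn 89 bases before the distal and 82 before the internal start, and in Krtdap 81 bases before the start. The motif reads the same on both strands. The KLF letters CCNCNCCC, searched on both strands, occurred in 6 of the 8 members with a sequence. By window this was 8 of 10, against 48.2% of all windows. The TATA box letters TATAAA, also on both strands, occurred in Krtdap and Ly6g6c. By window this was 2 of 10, against 13.1% of all windows. Krtdap had 2 KLF matches that overlap each other, and no KLF match overlapped an AP-1 match in the windows shown. Such matches describe letters in a window and are not evidence of binding.

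The libraries held 118858 to 322426 counts, and the members together took 1.90% to 2.46% of the counts in cKO and 1.48% to 2.19% in control. For the targeted genes, the cKO counts of Stim1 were 23 and 6 against control counts of 24 and 62. Scaled to library size these were 93.0 and 67.4 CPM in cKO against 128 and 198 CPM in control. The log2 fold change of Stim1 was -0.98 (standard error 0.52, edgeR adjusted p 0.671). The counts of Stim2 were 0 and 1 in cKO against 3 and 18 in control, too few to be tested. The labels do not name the deleted exons, and tags from the transcript's 3' end may lie outside them. In bulk RNA, fewer cells of a type and less RNA per cell cannot be told apart.

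Markers of the cell types that epidermis can hold were summed in each library. All 6 basal and all 4 spinous keratinocyte markers were detected in every library, with sums of 6125 to 8613 CPM and 2607 to 4694 CPM in cKO and of 4630 to 5768 CPM and 3991 to 7150 CPM in control. Basal markers differed in direction, with log2 fold changes of 2.04 for Krt14 and -1.06 for Krt15, neither of which passed. The 4 granular markers summed to 8732 to 15507 CPM in cKO and 1201 to 6435 CPM in control. Control replicate 1 showed 3 of them, and 2, Flg and Casp14, were called higher. Flg alone gave 8968 and 5383 CPM in cKO against 107 and 313 CPM in control. Lor (4561 and 1911 against 758 and 4471 CPM) and Flg2 (1783 and 1315 against 336 and 1645 CPM) overlapped between groups. Skeletal muscle markers were lower in cKO, at 16.2 and 67.4 CPM against 1158 and 833 CPM in control. Of the 5, 4 were called lower, and 3 and 1 were detected in the cKO libraries against 5 in each control library. The 7 hair follicle markers summed to 2648 to 3147 CPM in cKO and 5011 to 5997 CPM in control, the 6 T cell markers to 129 to 326 CPM and 390 to 402 CPM, and the 5 sebaceous markers to 639 to 1540 CPM and 479 to 496 CPM; 0 of these were called. Among the hair follicle markers, Krt79 went against the sum, at 902 and 1056 CPM in cKO and 272 and 255 CPM in control. Melanocyte markers, with Tyr at 0 throughout, summed to 137 to 427 CPM in cKO and 83.0 to 326 CPM in control. Endothelial markers summed to at most 4.04 CPM, with Cdh5 and Kdr at 0 throughout. The part of these differences in the values of the 9 genes was not tested.

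None of the 9 genes passed the test between cKO and control. All of them were abundant enough to be tested, and with edgeR's quasi-likelihood test 0 of 9 were called at an adjusted p under 0.05, where 0.848% of the 4243 tested genes were called (0.66% higher and 0.189% lower in cKO). At an unadjusted p under 0.05 the edgeR number was also 0, where 8.39% of tested genes were. At that unadjusted threshold it was 0 with DESeq2 and 1 with limma-voom, and both called 0 at the adjusted threshold. Fitted values were above 0 for 7 genes and below 0 for Ly6d and Ly6g6c, with a median log2 fold change of 0.35 against 0.01 over all tested genes, of which 50.4% were above 0. The size of change that the data leave room for was bounded: the upper ends of the 95% intervals lay between 1.70-fold (Ly6d) and 3.95-fold (Krtdap) higher in cKO, and the lower ends between 1.19-fold (Krtdap) and 2.03-fold (Ly6d) lower. A test that does not pass its threshold does not show that a gene was alike in both groups.

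**Figure D1:**
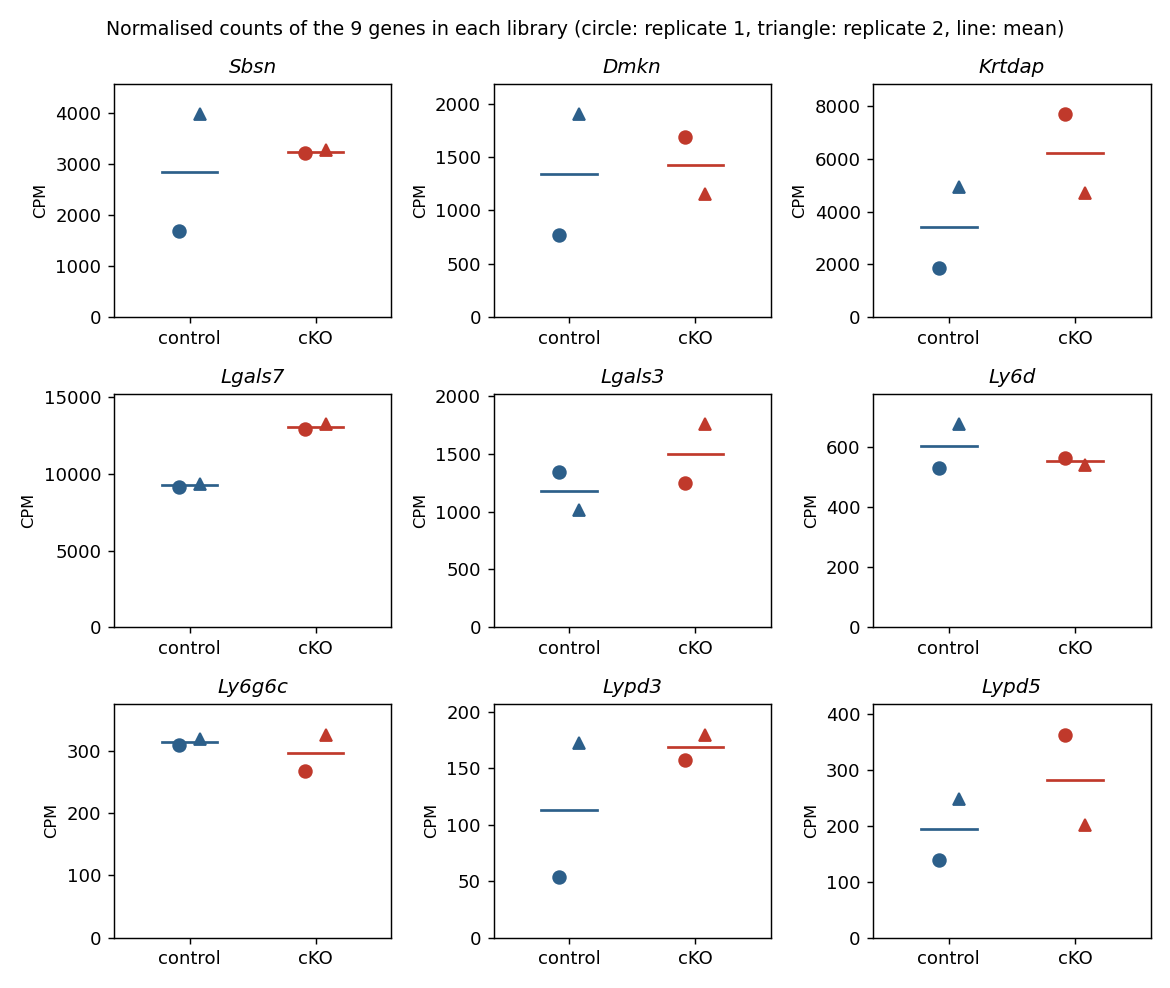
Normalised counts (CPM, linear axes from 0) of each gene in the 2 control and 2 cKO libraries, with a line at the group mean; circles are replicate 1 and triangles replicate 2. The groups overlap in every panel except that of Lgals7, and control replicate 1 is the lowest point in 7 of the 9 panels.

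**Figure D2:**
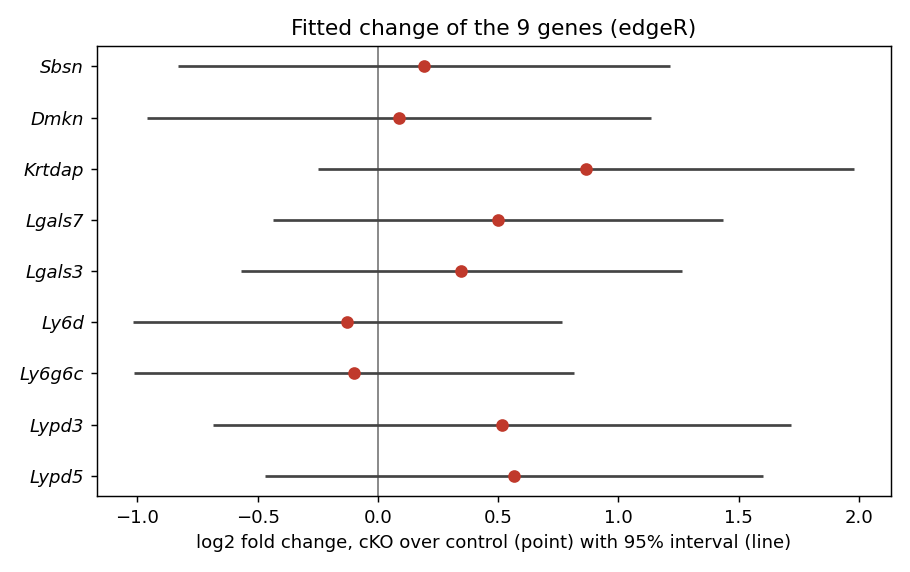
Fitted log2 fold change of cKO over control for the 9 genes (points) with 95% intervals from the edgeR fit (lines). All 9 intervals include 0, and Krtdap has the highest estimate at 0.87.

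Sbsn, Dmkn and Krtdap occupy 39627 bases of chromosome 7 (30450896 to 30490522 in the deposited table, GRCm39 per the submitters' processing notes), all on the plus strand. Sbsn (ENSMUSG00000046056, 30450896 to 30455559) encodes a secreted protein named for its place above the basal layer. Replicates 1 and 2 of cKO held 795 and 291 Sbsn counts, and replicates 1 and 2 of control held 317 and 1246. As CPM, which scales counts to the TMM library size, these were 3215 and 3270 against 1692 and 3979. The 2 cKO values lay close together between the 2 control values. The cKO mean was 3242 ± 39.5 CPM (SD, n = 2) and the control mean 2835 ± 1617 CPM (SD, n = 2). The fitted log2 fold change was 0.19 (standard error 0.48, edgeR adjusted p 0.992).

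Dmkn (ENSMUSG00000060962, 30463181 to 30480488), which gives several secreted protein forms from its different starts, was counted 417 and 103 times in the cKO libraries and 145 and 596 times in the control libraries. On the normalised scale these were 1686 and 1158 CPM in cKO and 774 and 1903 CPM in control, so that again both cKO values fell between the control values. The fitted log2 fold change was 0.09 (standard error 0.49, edgeR adjusted p 0.996). A count per gene does not separate the protein forms.

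Krtdap (ENSMUSG00000074199, 30487321 to 30490522), a small secreted protein of differentiating keratinocytes, had the highest fitted value of the 9. Its counts were 1902 and 420 for cKO against 351 and 1544 for control, or 7691 and 4720 CPM against 1873 and 4931 CPM. The groups overlapped, because cKO replicate 2 was just below control replicate 2. The cKO mean was 6205 ± 2100 CPM (SD, n = 2) and the control mean 3402 ± 2162 CPM (SD, n = 2). The fitted log2 fold change was 0.87, with a 95% interval from -0.25 to 1.98 (standard error 0.52, edgeR adjusted p 0.724, unadjusted p 0.117).

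Control replicate 1 was the lowest library for each of these 3 genes, and the gap between the control libraries exceeded the group difference. Control replicate 2 was 2.35-fold above control replicate 1 for Sbsn, 2.46-fold for Dmkn and 2.63-fold for Krtdap. The cKO libraries differed less, with replicate 1 at 0.983, 1.46 and 1.63 times replicate 2 in the same order. The estimates therefore turned on which control library was used: without control replicate 1 the log2 fold changes were -0.30, -0.42 and 0.33, and without control replicate 2 they were 0.94, 0.88 and 1.73. Dmkn was also at -0.26 without cKO replicate 1. None of these estimates passed the threshold.

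The division of counts among the 3 genes within a library does not depend on how libraries are scaled, and it was examined after the values were seen. Krtdap took 61.1% of the summed counts of the 3 genes in cKO replicate 1 (95% Wilson interval 59.4% to 62.8%) and 51.6% in cKO replicate 2 (48.2% to 55.0%). In control it took 43.2% in replicate 1 (39.8% to 46.6%) and 45.6% in replicate 2 (43.9% to 47.3%). Both cKO intervals thus lay above both control intervals, while the 2 cKO libraries also differed from each other. Dmkn took 13.4% and 12.7% in cKO and 17.8% and 17.6% in control, and Sbsn took 25.5% and 35.7% in cKO and 39.0% and 36.8% in control. These intervals cover counting error only, and 2 libraries against 2 cannot give an exact two-sided permutation p under 0.333, so the difference between groups is described and not tested.

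**Figure D3:**
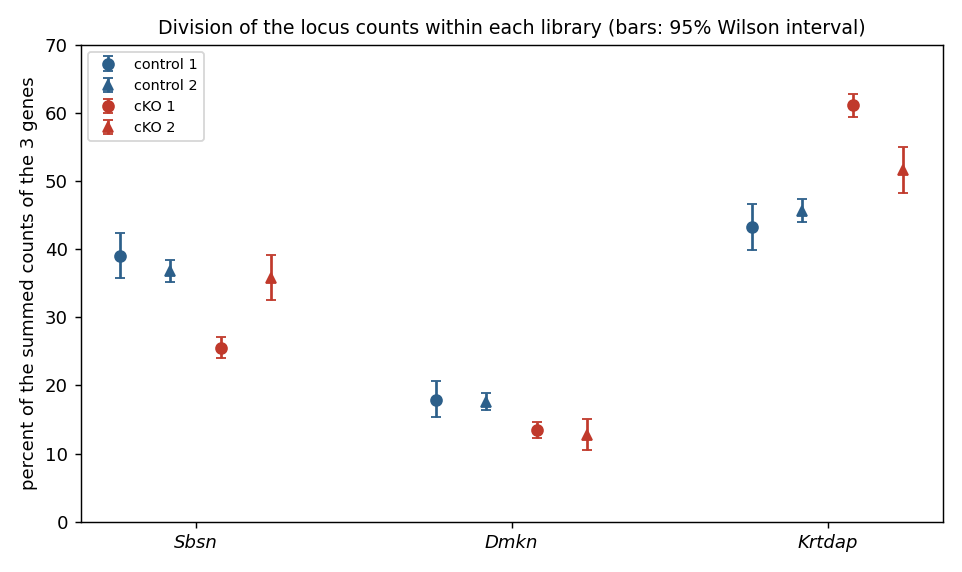
Share of the summed counts of Sbsn, Dmkn and Krtdap taken by each gene, in percent, in each library; bars are 95% Wilson intervals and shapes mark the replicate. Krtdap sits at 51.6% and 61.1% in cKO and at 43.2% and 45.6% in control, while the Sbsn interval of cKO replicate 2 overlaps those of both controls.

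The value of Sbsn is uncertain at its 3' end. A transcript listed under Tmem147os (ENSMUSG00000109224, lncRNA, plus strand) shares 279 of its 456 exon bases with Sbsn, on the same strand. It was counted 344 and 119 times in the cKO libraries and 184 and 593 times in the control libraries. That is 43.3% and 40.9% of the Sbsn count in cKO and 58.0% and 47.6% in control. How reads that fall on both genes were counted is not given in the sources used here. The shares of Sbsn, Dmkn and Krtdap given above use this Sbsn count and carry the same uncertainty. Elsewhere in the table, the overlapping genes Rbm42 and Gm21982 have the same count in each library (9 and 4 in cKO, 8 and 12 in control). For no other member did a second gene align over 1 unbroken stretch of at least 150 bases at 95% identity among GENCODE M21 transcripts.

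Genes around the cluster were listed to 200 kb on either side. Of 43 other genes starting there, 27 had a count, 14 reached a mean of 10 CPM and 8 were tested, of which 0 were called (3 above 0, 5 below 0). Those reaching 10 CPM were Lin37, Psenen, U2af1l4, Gm49396, Kmt2b, Cox6b1, Rbm42, Gm21982, Tmem147, Tmem147os, Ffar2, Hamp2, Usf2 and Lsr. The lowest adjusted p among them belonged to Hamp2, a hepcidin gene, which had control counts of 12 and 29 and was at 0 in each cKO library (edgeR adjusted p 0.0736, and past the threshold in 5 of 16 alternatives).

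Lgals7 (ENSMUSG00000053522, chromosome 7, 28563278 to 28565709) was the only one of the 9 genes whose groups did not overlap. Its counts were 3195 and 1176 for cKO against 1716 and 2926 for control, or 12919 and 13217 CPM against 9157 and 9344 CPM. Replicates of a group lay within 1.02-fold of each other. The cKO mean was 13068 ± 211 CPM (SD, n = 2) and the control mean 9250 ± 132 CPM (SD, n = 2). The difference of 1.41-fold (log2 0.50, standard error 0.43, 95% interval -0.44 to 1.43) did not pass the test (edgeR adjusted p 0.889), which takes its error from the spread of all genes as well as from this one. Both cKO libraries lay above both control libraries in 18.9% of the tested genes and below them in 19.6%, so that 38.5% of tested genes did not overlap in either direction. The estimate for Lgals7 stayed between 0.47 and 0.51 whichever library was left out, and was 0.23 with library totals alone.

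Over the 4 libraries the genes whose centred log2 CPM lay nearest to that of Lgals7, among 3563 others with a mean of at least 50 CPM, were Pdcd6, Gm15387 and Rpl10a. Their root mean square distances were 0.043, 0.048 and 0.050. With 4 libraries, many genes can lie this close.

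Lgals3 (ENSMUSG00000050335, chromosome 14, 47605208 to 47623617) ordered the libraries differently. The cKO libraries held 309 and 156 counts and the control libraries 251 and 318, or 1249 and 1753 CPM against 1339 and 1016 CPM. Here cKO replicate 2 was highest and control replicate 2 lowest, and the groups overlapped. The fitted log2 fold change was 0.35 (standard error 0.43, edgeR adjusted p 0.945). Galectin-3 is also made by macrophages and Langerhans cells, whose 10 listed markers summed to 938 and 2900 CPM in cKO and 3244 and 1855 CPM in control. Of these 10 markers 6 and 8 were detected in the cKO libraries and 9 and 10 in the control libraries. Within each group, which is 1 pair of libraries, the library with more of these markers also had more Lgals3. Across groups the sum ran differently: control replicate 1 had the largest marker sum, and cKO replicate 2 had the most Lgals3. The 3 tested markers, Cd74, H2-Aa and H2-Ab1, made up most of each sum. They had log2 fold changes of -0.80, -0.38 and -0.33, opposite in sign to Lgals3, and none passed. Of the untested markers, Lyz2, Cd68, C1qa and C1qb were highest in cKO replicate 2, at 19, 6, 5 and 2 counts. These were 214, 67.4, 56.2 and 22.5 CPM. Cd207 and Mrc1 were highest in control replicate 1, and Adgre1 in control replicate 2. The part of such cells in the Lgals3 value was not tested.

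Among the other galectins, 9 of 10 listed names were in the table, 7 had a count and 3 were tested, of which 0 passed the threshold. Lgals1, which many cell types including fibroblasts express, was counted 39 and 69 times in cKO libraries and 74 and 44 times in control libraries (log2 fold change 0.76, standard error 0.67), and its estimate became -0.73 without cKO replicate 2. The galectin-related gene Lgalsl had 81 and 45 counts against 38 and 78 (0.85, standard error 0.44), and Lgals8, a galectin with a pair of sugar-binding domains, had 16 and 5 against 5 and 7 (1.31, standard error 0.84). As CPM these were 328 and 506 against 203 and 249 for Lgalsl, and 64.7 and 56.2 against 26.7 and 22.4 for Lgals8. Like Lgals7, both genes thus had each cKO library above each control library, as did 18.9% of tested genes. Lgals1 was highest in cKO replicate 2, at 775 CPM against 141 to 395 CPM in the other libraries. The 6 fibroblast markers summed to 607 CPM in cKO replicate 2 and to 36.4 to 160 CPM in the others, and Pdgfra was at 0 counts throughout; their part in Lgals1 was not tested.

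Of the Ly6/uPAR members, Ly6d and Ly6g6c had fitted values just below 0, and Lypd3 and Lypd5 had higher ones. Their 95% intervals overlapped, and the difference between these genes was not tested. Ly6d (ENSMUSG00000034634, chromosome 15, 74633905 to 74635469, minus strand), a surface antigen of stratified epithelium, held 139 and 48 counts in the cKO libraries against 99 and 211 in the control libraries. These were 562 and 539 CPM against 528 and 674 CPM, and both cKO values fell between the control values. The fitted log2 fold change was -0.13 with a 95% interval from -1.02 to 0.76 (edgeR adjusted p 0.992).

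Ly6g6c (ENSMUSG00000092586, chromosome 17, 35284364 to 35289026) lies in the major histocompatibility complex class III region. Its counts were 66 and 29 for cKO against 58 and 100 for control, or 267 and 326 CPM against 309 and 319 CPM. The 2 control values lay between the cKO values. The log2 fold change was -0.10 with a 95% interval from -1.01 to 0.81 (edgeR adjusted p 0.992). Ly6d and Ly6g6c thus had fitted values nearer to 0 than the gap between replicates in at least one group.

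Lypd3 (ENSMUSG00000057454, chromosome 7, 24335975 to 24340543) encodes C4.4A, a surface protein of suprabasal keratinocytes. It was among the members with few counts, at 39 and 16 for cKO and 10 and 54 for control. Normalised values were 158 and 180 CPM against 53.4 and 172 CPM: 3 libraries were alike and control replicate 1 was 3.23-fold below control replicate 2. The log2 fold change of 0.52 (standard error 0.56, edgeR adjusted p 0.927) was -0.04 when control replicate 1 was left out and 1.64 when control replicate 2 was. An antisense lncRNA, Gm26550, shares 225 exon bases with Lypd3 and had at most 2 counts in any library.

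Lypd5 (ENSMUSG00000030484, chromosome 7, 24048621 to 24054534), a related gene on the same chromosome, was counted 90 and 18 times in the cKO libraries and 26 and 78 times in the control libraries. Its 364 and 202 CPM in cKO and 139 and 249 CPM in control overlapped, with replicates 1.80-fold apart in each group. The fitted log2 fold change was 0.57 (standard error 0.48, edgeR adjusted p 0.880), and it ranged from -0.0032 without cKO replicate 1 to 1.06 without control replicate 2.

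Of 40 other Ly6/uPAR genes, all were in the table, 21 had a count and 4 were tested; 0 passed the threshold, 2 were above 0 and 2 below. Slurp1, a secreted member linked to palmoplantar keratoderma when lost in man, was counted 40 and 7 times in cKO libraries and 4 and 32 times in control libraries (log2 fold change 0.95, standard error 0.68), an estimate that ran from 0.22 without cKO replicate 1 to 2.52 without control replicate 2. Ly6m had 21 and 1 counts against 7 and 47 (-0.78, standard error 0.79), and Ly6a, known as Sca-1, had 17 and 0 against 12 and 21 (-0.61, standard error 0.86). In each of these genes the replicates of a group differed by more than the groups did.

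The replicate gaps set the picture across the members. In 7 of the 9 genes the log2 gap between the control libraries was larger than the fitted group difference, against 56.5% of 4071 tested genes with a count in every library. Between the cKO libraries this held for 4 genes, against 62.0%. Control replicate 2 was above control replicate 1 in 8 genes, against 50.6% of those 4071 genes, the exception being Lgals3. For Lgals7 and Ly6g6c it was only 1.02-fold and 1.03-fold above. Control replicate 1 was the lowest of the 4 libraries in 7 genes, against 22.9% of all tested genes and 19 of 36 in a list of other suprabasal differentiation genes. The exceptions were Lgals3 and Ly6g6c.

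**Figure D4:**
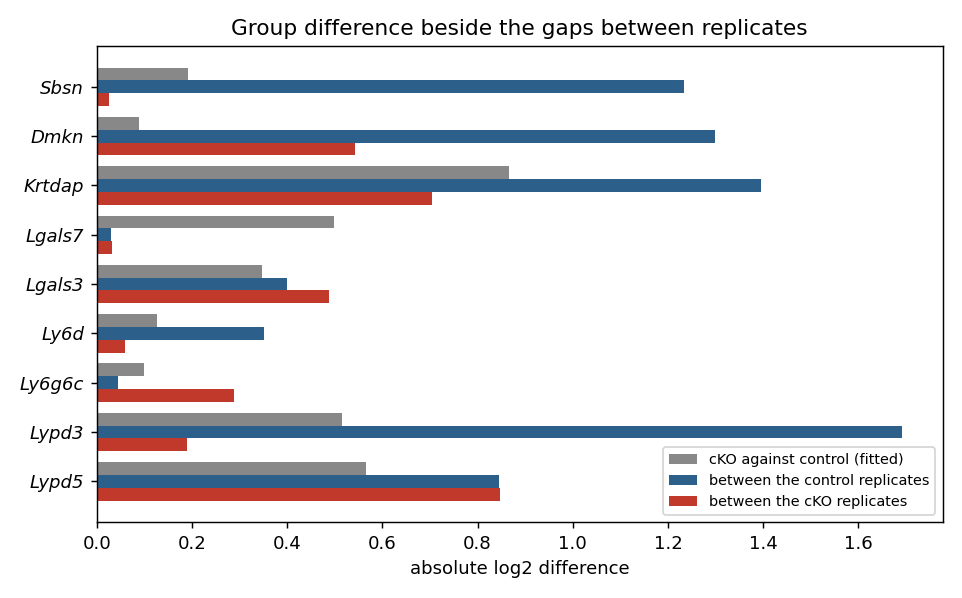
Absolute log2 differences for each gene: fitted cKO against control (grey), control replicate 2 against 1 (blue) and cKO replicate 1 against 2 (red). The blue bars of Sbsn, Dmkn, Krtdap and Lypd3 exceed 1.23 and exceed the grey bars, whereas for Lgals7 both replicate bars are near 0.03.

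Over the 9 genes the median log2 fold change was 0.35 with all libraries, -0.04 without control replicate 1 and 0.88 without control replicate 2. Without cKO replicate 1 it was 0.16, and without cKO replicate 2 it was 0.34. Its sign thus rested on control replicate 1.

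**Figure D5:**
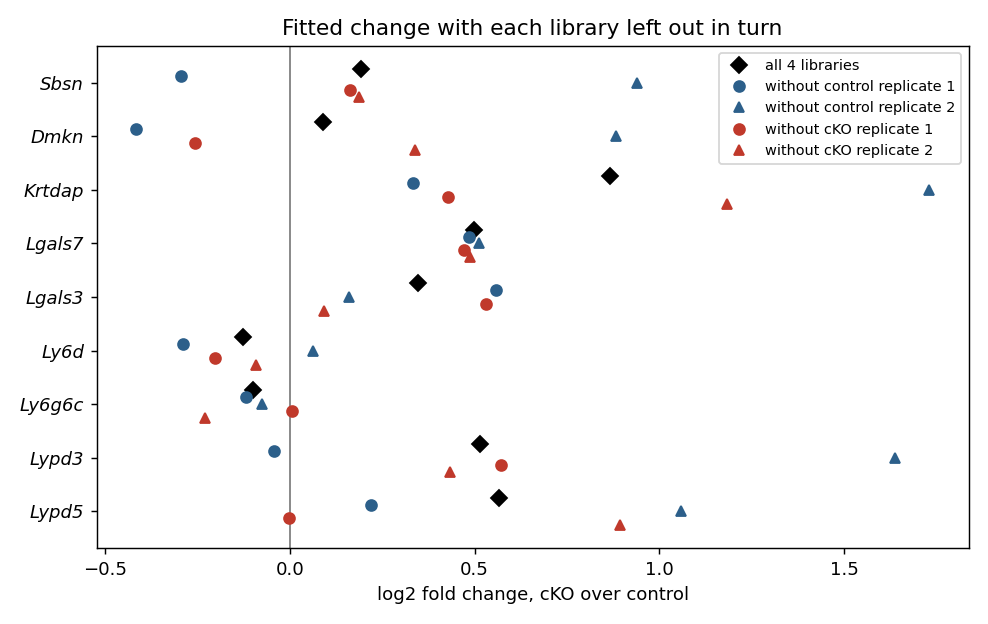
Log2 fold change of cKO over control for each gene with all 4 libraries (diamonds) and with 1 library left out (circles: replicate 1, triangles: replicate 2; blue: control, red: cKO). Lgals7 stays between 0.47 and 0.51, while Lypd3 runs from -0.04 to 1.64 and Krtdap from 0.33 to 1.73.

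Other genes of suprabasal differentiation gave calls in the same fit. Of 45 listed, 44 were in the table and 36 were tested. Fitted values were above 0 for 27 and below 0 for 9, with a median of 0.39, where 50.4% of all tested genes were above 0. The lowest were those of Tgm3 (-2.15), Dsg1a (-1.51), Krt80 (-1.21) and Ivl (-1.20), which did not pass. In the list 4 genes were called higher, 0 lower, and 32 did not pass. Of all tested genes 0.66% were called higher and 0.189% lower. Flg, which encodes profilaggrin of the granular layer, was counted 2218 and 479 times in cKO libraries and 20 and 98 times in control libraries (log2 fold change 5.07, standard error 0.62, edgeR adjusted p 0.000593). Hrnr, a related S100-fused protein, had 403 and 43 counts against 16 and 56 (2.99, standard error 0.60, adjusted p 0.0329). Casp14, a protease that acts in filaggrin breakdown, had 48 and 11 counts against 0 and 2 (adjusted p 0.0123). The fourth, Fabp5, an epidermal fatty acid-binding protein singled out for its call, was counted 175 and 111 times against 26 and 77 (2.31, standard error 0.49, adjusted p 0.0424). Flg was called in all 16 alternatives, whereas Hrnr and Casp14 were called in 13 and Fabp5 in 12. Each of these 3 lost its call with the replicate block, with adjusted p of 0.281, 0.0522 and 0.173 and log2 fold changes of 2.80, 5.14 and 2.34. Casp14 also lost its call with limma-voom (0.348), and Fabp5 with library totals alone (0.0588). Leaving out control replicate 1 ended the calls of Hrnr (0.104) and Fabp5 (0.281), leaving out control replicate 2 that of Fabp5 (0.0713), and leaving out cKO replicate 1 those of Hrnr (0.0737, with its log2 fold change at 1.79) and Casp14 (0.113). Krtdap, at -0.25 to 1.98, had an interval that overlapped those of Hrnr (1.69 to 4.28) and Fabp5 (1.26 to 3.36) and not that of Flg (3.74 to 6.39); the difference between genes was not tested. In the same fit the skeletal muscle markers Myh4, Pvalb, Acta1 and Tnnc2 were lower in cKO, and Myh4 had no count in cKO against 37 and 32 in control (adjusted p 0.0146). The 3 tested hair follicle markers were split: Tchh and Krt17 had log2 fold changes of -1.91 and -1.39, and Krt79 of 1.89. None of them passed (edgeR adjusted p 0.0677, 0.264 and 0.0677). The part of these tissues in the 4 calls was not tested.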

How the data were processed

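Epidermis was separated from dermis with sodium thiocyanate, and 3' transcriptome libraries (QIAseq UPX) were made from its total RNA, per the labels' protocols. The authors deposited whole-number counts per gene for 4 libraries, without normalisation. Trim Galore 0.6.7, cutadapt 3.7, Trimmomatic 0.39, STAR 2.7.10a, featureCounts 2.0.1 and GRCm39 are named in the submitters' processing notes, with no roles given. The collapsing of molecular identifiers and the treatment of strand and shared reads are not given in the sources used here. Of the per-sample columns, 0 were left unused.

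Groups were taken from the titles. The filter filterByExpr, at a minimum count of 10 and a minimum total of 15, left 4243 genes with 87.6% of counts. They were scaled with TMM (factors 0.833 to 1.12) and tested with glmQLFit (defaults) and glmQLFTest in edgeR 4.0.16 (R 4.3.3), genotype as the only term, Benjamini-Hochberg over all genes, threshold 0.05. CPM values use TMM library sizes, in which 1 count is 3.19 to 11.2 CPM. The standard error is the absolute log2 fold change over the square root of F, and 95% intervals use the t distribution with the fit's degrees of freedom. Alternatives used DESeq2 1.42.0, limma 3.58.1, other scalings, filters and thresholds, a replicate block and each library left out. Promoters came from RefSeq (GRCm38.p6; 8 of 9 members matched), and copies were searched with blastn 2.17.0. One marker list is not reported here. The members and lists were chosen with earlier results of these data known. Named genes are the members, Stim1 and Stim2, neighbours of the cluster with a mean of at least 10 CPM, genes nearest in pattern to members whose groups do not overlap, and in each list the 3 tested genes of at least 10 CPM with the largest absolute log2 fold change.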

Additional observations from a re-analysis of the deposited data

How the results depend on the processing

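Under all 16 alternatives, 0 of the 9 genes passed the adjusted threshold. The lowest adjusted p of any member was 0.0541, for Krtdap with crossed replicate numbers. Among settings with all 4 libraries, that block and limma-voom each had 1 member at an unadjusted p under 0.05. Krtdap, Lgals7 and Lgals3 kept their sign throughout. With library totals alone, which moved the median of all tested genes to -0.24, Sbsn was at -0.083 and Dmkn at -0.16 (log2), both above that median. Leaving out 1 library gave ranges of -0.30 to 0.94 for Sbsn, -0.42 to 0.88 for Dmkn, -0.29 to 0.061 for Ly6d, -0.23 to 0.0070 for Ly6g6c, -0.043 to 1.64 for Lypd3, -0.0032 to 1.06 for Lypd5 and -0.043 to 0.88 for the median of the 9 genes. Among the other named genes, leaving out 1 library gave fitted ranges of -0.73 to 1.67 for Lgals1, -6.71 to 0.072 for Ly6a, which has 0 counts in 1 library, and -3.09 to 0.54 for Ly6m; Slurp1 ran from 0.22 to 2.52. Over all tested genes, 28 were higher and 8 lower in cKO. These counts were 26 and 15 with library totals alone, 49 and 26 with no count filter, 40 and 15 at a mean of at least 10 CPM, 12 and 3 with limma-voom, 43 and 17 at an adjusted p under 0.1, 27 to 48 and 4 to 28 with 1 library left out. With the replicate number as a block they were 16 and 1. The labels do not say that numbers mark pairs, and the deviations of same-numbered libraries correlated at -0.20 across genes; a block with crossed numbers, chosen after seeing the data as was legacy set to FALSE (31 and 10), gave 90 and 57. The cause of these changes was not tested. Where 1 library is left out of a group, the remaining library is assumed to vary like the other group. Lypd3, Lypd5 and Ly6g6c had as few as 10, 18 and 29 counts in a library.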
